A study of Mus musculus with 2 samples.

Results

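The genes described here are 5 receptors that guide blood progenitors to, within or out of the thymus, out of 28692 genes listed in each library: Ccr7, Ccr9, Cxcr4, Selplg and S1pr1. They were chosen by name and not by their measured values. The cells came from the livers of wild type CD1 mouse embryos at E13.5. After depletion of TER-119+ cells, which removes red cell precursors, the Sca-1+ cKit+ fraction was sorted for its stem and progenitor cells and kept on plates coated with the Notch ligand DL4 at 10 μg/mL and the adhesion protein VCAM-1 at 2.32 μg/mL. Single-cell RNA was captured on the 10X Chromium platform in 2 libraries, FL001 and FL002, which both belong to this 1 condition. The study pools cells taken directly after the sort with cells cultured for different lengths of time, and the labels do not say which times each library holds. No thymic stroma was present in the wells, and all values are of RNA and not of receptor protein on the cell surface.

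Thymus seeding is a stepwise process. Progenitors first roll on P-selectin through PSGL-1, the sialomucin encoded by Selplg, and then respond to chemokines, small secreted proteins that activate integrins and direct migration. CCR9 binds CCL25 and CCR7 binds CCL19 and CCL21, all of which are made by thymic stroma, and both receptors are known to help progenitors enter the thymus. CXCR4 binds CXCL12, holds progenitors in the fetal liver and the bone marrow, and inside the thymus directs early thymocytes toward the cortex. S1PR1 senses the lipid sphingosine 1-phosphate (S1P) and is best known for the exit of mature T cells from the thymus, so that it is a trafficking receptor and not a homing receptor in the strict sense. In the fetal thymus the first settling progenitors are often lymphoid-primed cells that already transcribe some B cell or T cell genes.

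Barcodes were kept as cells from 1500 UMIs (unique molecular identifiers, each standing for 1 captured RNA molecule) and 500 genes upward, if mitochondrial genes held no more than 10% of the UMIs. This left 1788 cells in FL001 and 4100 in FL002, with a median of 7722 and 4752.5 UMIs per cell, and 10 barcodes were kept in both. The cells were divided by the RNA of a few defining genes into 6 disjoint gates. Progenitor cells had at least 2 UMIs of Lmo2 and Mef2c together with at most 1 UMI of Cd3g, and those that also had at least 2 UMIs of Ighm, Ebf1 and Cd79b together were set apart as primed cells. Early cells had at most 2 UMIs of Cd3g and at most 1 of Lmo2 and Mef2c. Cd3g cells had at least 3 UMIs of Cd3g, a chain of the T cell receptor complex. Il2ra cells had at least 1 UMI of Il2ra, the interleukin-2 receptor alpha chain that marks the double-negative 2 stage. Committed cells had at least 2 UMIs of Ptcra, Lef1 and Bcl11b together, genes of T lineage commitment. A cell that met several rules went to the later gate. The gates held 275, 133, 301, 159, 463 and 451 cells of FL001 and 540, 146, 848, 675, 1377 and 501 cells of FL002, in this order, and 6 and 13 cells met no rule.

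The gate names stand for these RNA thresholds and not for sorted populations. Summed over 9 T lineage markers, of which 5 define gates, the level was 56.5 and 81.3 CPM (UMIs per 1000000 UMIs) in the progenitor cells of FL001 and FL002 and 5802 and 5528 CPM in the committed cells. The summed level of 7 progenitor markers, which include the gate genes Lmo2 (292 and 322 CPM in the progenitor cells) and Mef2c (274 and 326 CPM), was 1006 and 1071 CPM in the progenitor cells and 39.2 and 43.9 CPM in the committed cells. The early gate was mixed: its 9 myeloid markers summed to 4371 CPM in FL001 and 1430 CPM in FL002. The progenitor gate was mixed too, with 2880 CPM of these markers and 1095 CPM of 4 megakaryocyte markers in FL001. Cells rich in RNA of the granule genes Mpo, Elane, Prtn3 and Ctsg (at least 10 UMIs together with at most 1 UMI of Cd3g) are called myeloid cells below. They made up 55 of the 133 and 31 of the 146 primed cells, and 76 of the 275 and 89 of the 540 progenitor cells.

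In the GENCODE annotation of the mouse build GRCm38, Ccr7 lies at chr11:99144196-99155077 on the minus strand, Cxcr4 at chr1:128588199-128592293 on the minus strand, Selplg at chr5:113818536-113832644 on the minus strand and S1pr1 at chr3:115710433-115715072 on the minus strand. None of these 4 overlaps another annotated gene. Ccr9 lies at chr9:123678439-123784330 on the plus strand and overlaps 6 annotated genes, of which Slc6a20a and Lztfl1 of the opposite strand are in the files. Because the strand setting of the authors' counting is not given in the sources used here, reads of these genes cannot be assigned with certainty where they overlap.

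Promoters from RefSeq (GRCm38.p6, 250 bases before to 50 after the annotated start) were found for 2 of the 5 receptors, Ccr9 and Cxcr4. These 2 are shown because no promoter was found for the other receptors, and they were not chosen by their values. Capitals mark the only match in them to any of 4 motifs searched on both strands: the E box of E proteins (CAGCTG or CAGGTG), the RBPJ motif TGGGAA through which Notch acts, the TCF/LEF motif CTTTGA and the RUNX motif TGTGGT. The Ccr9 promoter is at chr9:123766961-123767260 on the plus strand, inside the gene span above, and the Cxcr4 promoter is at chr1:128592250-128592549 on the minus strand.
Ccr9: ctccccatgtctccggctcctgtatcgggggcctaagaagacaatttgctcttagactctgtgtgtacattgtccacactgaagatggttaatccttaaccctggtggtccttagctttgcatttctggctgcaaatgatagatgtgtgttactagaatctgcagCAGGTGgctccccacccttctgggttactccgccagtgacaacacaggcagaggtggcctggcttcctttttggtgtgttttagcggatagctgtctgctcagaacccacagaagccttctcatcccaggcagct
Cxcr4: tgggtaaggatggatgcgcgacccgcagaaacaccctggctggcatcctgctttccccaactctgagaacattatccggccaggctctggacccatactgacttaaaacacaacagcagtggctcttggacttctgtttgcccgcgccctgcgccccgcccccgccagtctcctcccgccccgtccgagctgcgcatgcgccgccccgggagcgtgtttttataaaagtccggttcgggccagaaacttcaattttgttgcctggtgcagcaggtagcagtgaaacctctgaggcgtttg
The E box match in the Ccr9 promoter begins at base -85 from the start. E box matches occurred in 32.9% of 32851 promoters of this length, RBPJ matches in 25.6%, TCF/LEF matches in 16.0% and RUNX matches in 16.8%. A match is a description of letters in the window and was not tested as a binding site.

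**Figure D1:**
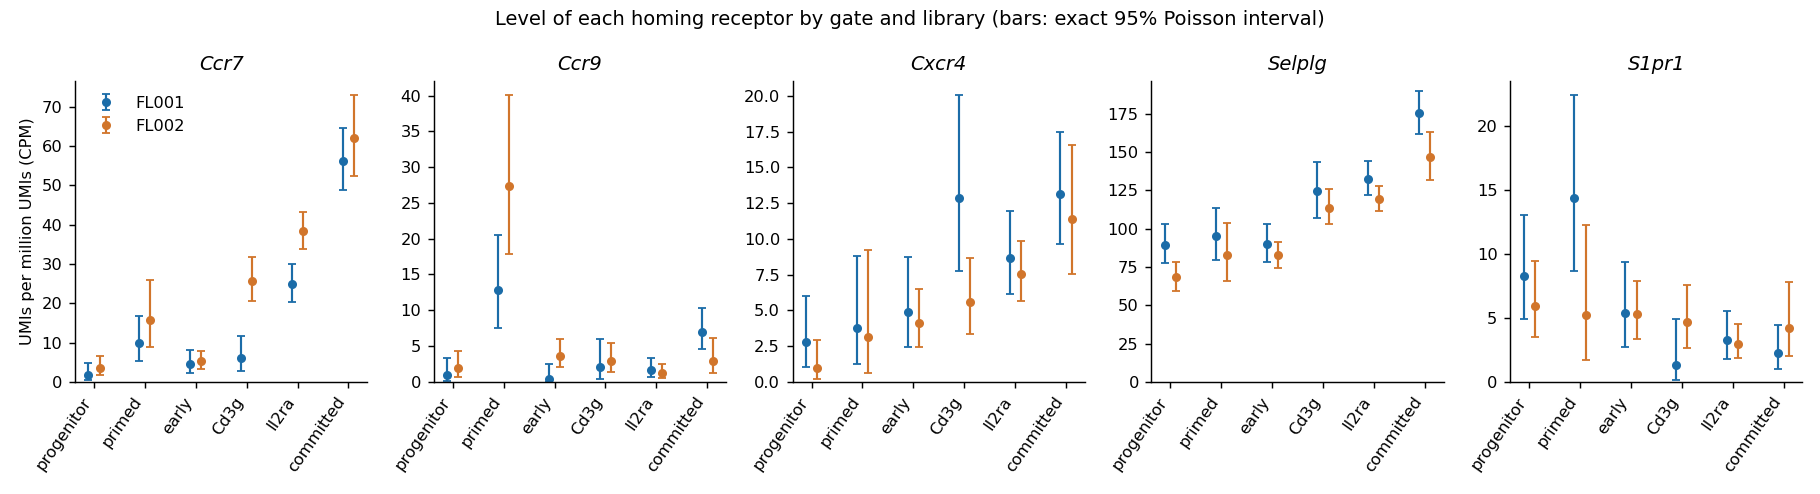
Level of each receptor in CPM (vertical axis, with its own scale for each receptor) in the 6 gates, with 1 point per library (blue FL001, orange FL002) and the exact 95% Poisson interval as the bar. Ccr7 and Selplg were highest in the committed cells, Ccr9 in the primed cells, and S1pr1 lay at or under 14.3 CPM in every gate.

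The 5 receptors were detected in very different shares of cells, as the plot of levels by gate shows. Selplg, which encodes the P-selectin ligand, gave 1901 UMIs in FL001 and 2231 in FL002 and was found in 58.9% and 39.6% of all kept cells. Ccr7 gave 345 and 554 UMIs and was found in 9.68% and 9.54% of cells. Cxcr4 gave 125 and 123 UMIs, S1pr1 74 and 94, and Ccr9 only 55 and 74. Intervals on these values cover counting error only, and the last 3 genes therefore carry wide ones.

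To ask where along T lineage progression each receptor changed, UMIs were summed per library and gate and 5 neighbouring pairs of gates were compared with edgeR's quasi-likelihood test, with the library as a block. All 5 receptors passed the filter on low counts and were among the 10337 genes tested, with p-values adjusted over all of them by the Benjamini-Hochberg method. The block takes out the overall difference between the 2 libraries. The test therefore rests on how far the differences between gates vary from library to library, pooled over all gates. That spread may be technical. The culture times held by each library are not known, and the source of the spread was not tested. Between primed and progenitor cells 2 of the 5 receptors rose (Ccr7 and Ccr9) and none fell, beside 2.03% of all genes tested that rose and 1.34% that fell. Between early and progenitor cells none of the 5 passed the test, beside 4.94% that rose and 4.13% that fell. At an unadjusted p under 0.05 this comparison held 2227 genes, among them Cxcr4, and DESeq2 called none of the 5 either. Between Cd3g and early cells 2 receptors rose (Ccr7 and Selplg) and none fell, beside 3.74% and 3.63% of all genes. Between Il2ra and Cd3g cells none passed, in a comparison that called 0.0871% of all genes as higher and 0.0677% as lower. At an unadjusted p under 0.05 it held 410 genes, among them Ccr7, and DESeq2 called none of the 5. Between committed and Il2ra cells 3 receptors rose (Ccr7, Ccr9 and Selplg) and none fell, beside 5.21% and 4% of all genes. Cxcr4 and S1pr1 passed the test in none of the 5 comparisons. Neighbouring comparisons share a gate, so a high level in 1 gate enters both.

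**Figure D2:**
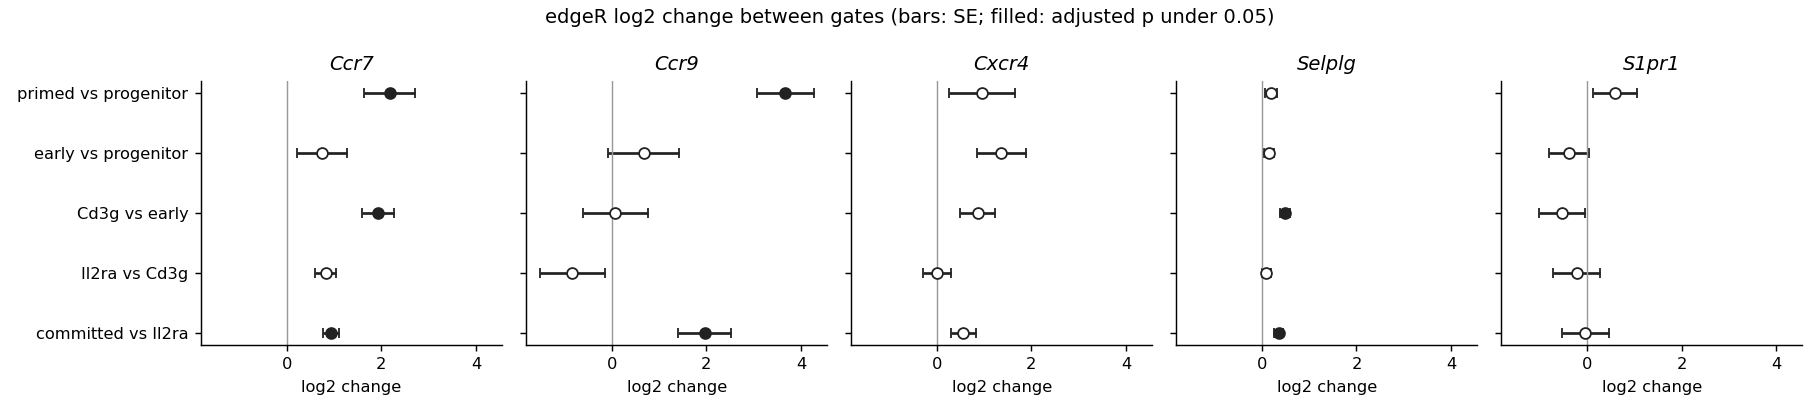
Fitted log2 change of each receptor (horizontal axis) in the 5 comparisons between gates (rows), from edgeR on UMIs summed per library and gate, with the standard error as the bar and filled circles where the adjusted p was under 0.05. Each of the 7 filled circles lies to the right of 0, and the farthest is Ccr9 in primed against progenitor cells at 3.67.

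Selplg was the most widely detected of the receptors. Its level was 89.6 and 68.4 CPM in the progenitor cells of FL001 and FL002, 95.1 and 83.0 CPM in the primed cells and 89.9 and 82.4 CPM in the early cells. It was 124 and 114 CPM in the Cd3g cells, 133 and 119 CPM in the Il2ra cells and 175 and 147 CPM in the committed cells. The 3 gates before Cd3g overlapped between libraries, the Cd3g and Il2ra cells overlapped with each other, and the committed cells stood above both in either library. From early to Cd3g cells Selplg rose by 0.48 ± 0.10 on the log2 scale (SE, 2 libraries, edgeR adjusted p = 0.00314), a 1.40-fold change. From Il2ra to committed cells it rose by a further 0.36 ± 0.09 (adjusted p = 0.00984), or 1.28-fold. The change from Cd3g to Il2ra cells was 0.09 ± 0.10 (adjusted p = 1). Without the library block the rises had edgeR adjusted p = 0.0858 and adjusted p = 0.18, and DESeq2 gave the second an adjusted p of 0.22. Gates drawn on cells thinned to 1500 UMIs gave the second an edgeR adjusted p of 0.158.

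Selplg UMIs were also found in cells of other fates. In the myeloid cells, 161 in FL001 and 164 in FL002, it stood at 91.1 and 58.7 CPM. Barcodes with 1 to 100 UMIs, which stand for empty droplets, held 123 and 94.3 CPM, above the myeloid, progenitor and early cells of both libraries and the primed cells too. The Cd3g cells, at 124.3 and 113.7 CPM, lay within the counting intervals of the empty droplets (101.7 to 148.5 and 77.2 to 114.0 CPM). So did the Il2ra cells of FL001 (132.6 CPM). The part of free RNA in these values was not tested. Among early cells it was 77.3 and 75.4 CPM in those with Tcf7, which encodes the Notch-induced factor TCF-1, and 106 and 88.4 CPM in those without. The early cells without Tcf7 were thus the higher in both libraries, with counting intervals that overlap (86.6 to 128 against 62.7 to 94.3 CPM in FL001). Within the committed cells, those with and without Il2ra were close, at 174 and 178 CPM in FL001 and 144 and 151 CPM in FL002.

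Ccr9, the receptor for the thymic chemokine CCL25, had its highest level in the primed cells. It stood at 12.8 CPM in the primed cells of FL001 (17 UMIs, 95% Poisson interval 7.47 to 20.5) and at 27.3 CPM in those of FL002 (26 UMIs, 17.8 to 40.0). In the progenitor cells, which differ by the B lineage genes alone in how they were gated, it was 0.919 CPM in FL001 (2 UMIs) and 1.98 CPM in FL002 (6 UMIs). The fitted log2 change was 3.67 ± 0.60 (edgeR adjusted p = 0.000334), and in each library alone it was 3.52 and 3.70. Without the library block the adjusted p was 0.0244 and with DESeq2 it was 0.00184, so this call was kept by both. It was lost when the gates were drawn on cells thinned to 1500 UMIs, which left 5 and 6 primed cells and 1 UMI of Ccr9 in them (log2 change 0.95 ± 1.93). Empty droplets held Ccr9 at 8.82 CPM in FL001, with a counting interval (3.81 to 17.4) that includes the primed value of that library. In FL002 they held 1.78 CPM (0.215 to 6.43), under the primed value. The part of free RNA in the primed values was not tested.

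At full depth 10 of 133 primed cells in FL001 (7.52%) and 17 of 146 in FL002 (11.6%) held Ccr9, at a median depth of 9262 and 6131 UMIs. The myeloid cells were taken as cells without the receptor, an assumption that was not tested. Among them Ccr9 was found in 0 of 161 cells of FL001, which allows a share of up to 1.86% (3 cells of the total). In FL002 it was found in 1 of 164 myeloid cells (0.61%). The myeloid cells had a median of 10362 and 7668 UMIs. With every cell thinned to 1500 UMIs the share in primed cells was 2.26% and 5.48%, against 0.364% and 0.185% in progenitor cells. In the committed cells it was 2.44% and 0.399%, so that at equal depth the primed share stood above the committed one in FL002 and not in FL001. Leaving out the myeloid cells raised the level in the primed cells to 25.9 and 37.6 CPM and the log2 change over progenitor cells to 3.90 ± 0.57 (edgeR adjusted p = 8.48e-05). The summed megakaryocyte markers were 11.3 and 638 CPM in primed cells and 1095 and 265 CPM in progenitor cells of FL001 and FL002, and their part in the Ccr9 result was not tested.

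In the gates after the primed cells Ccr9 was low. The early cells held 0.445 and 3.66 CPM, the Cd3g cells 2.03 and 2.92 CPM and the Il2ra cells 1.64 and 1.28 CPM, and each of these gates overlapped between libraries with the next in the order of levels, down to the progenitor cells. The committed cells held 6.99 CPM in FL001 (25 UMIs in 22 cells) and 2.96 CPM in FL002 (7 UMIs in 6 cells). This was above the Il2ra cells in both libraries. In FL002 it was below the early cells (3.66 CPM) and close to the Cd3g cells (2.92 CPM). Empty droplets held Ccr9 at 8.82 CPM in FL001 (8 UMIs, interval 3.81 to 17.4), above the committed cells of that library, and at 1.78 CPM in FL002 (2 UMIs), and the part of free RNA in these values was not tested. Against the Il2ra cells the committed cells had a log2 change of 1.97 ± 0.56 (edgeR adjusted p = 0.0242), 2.02 in FL001 alone and 1.23 in FL002 alone. The primed cells stood above the committed cells in both libraries. The call in committed cells rests on 32 and 16 UMIs and was lost with DESeq2 (adjusted p = 0.278), without the library block (edgeR adjusted p = 0.198) and with gates drawn on thinned cells (edgeR adjusted p = 0.0751).

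**Figure D3:**
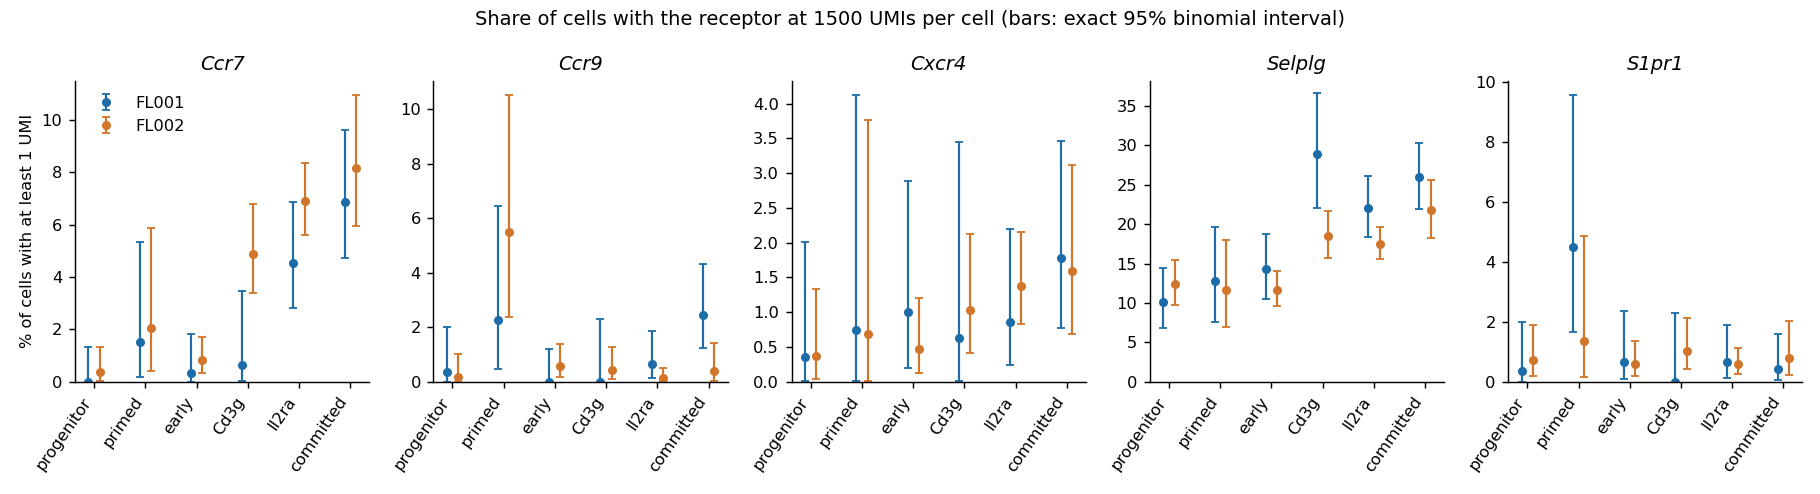
Share of cells with at least 1 UMI of each receptor after every cell was thinned to 1500 UMIs (vertical axis in percent, with its own scale for each receptor) in the 6 gates, with 1 point per library and the exact 95% binomial interval as the bar. Ccr9 reached 5.48% in the primed cells of FL002, and Selplg lay between 10.2% and 28.9%.

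Ccr7, the receptor for CCL19 and CCL21, rose along the gates and had a separate elevation in the primed cells. It was 1.84 and 3.64 CPM in the progenitor cells of FL001 and FL002 and 9.81 and 15.8 CPM in the primed cells. It was then 4.45 and 5.27 CPM in the early cells, 6.08 and 25.7 CPM in the Cd3g cells, 24.9 and 38.3 CPM in the Il2ra cells and 56.2 and 62.1 CPM in the committed cells. The committed cells lay above every other gate in both libraries, whereas the Cd3g cells overlapped with both the primed and the Il2ra cells because their libraries differed. In FL001 the Cd3g gate held 9 UMIs of Ccr7 in 159 cells (interval 2.78 to 11.5 CPM) and in FL002 88 UMIs in 675 cells (20.6 to 31.7 CPM).

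Primed cells had a log2 change in Ccr7 of 2.18 ± 0.54 over progenitor cells (edgeR adjusted p = 0.0194), or 4.53-fold, with 2.30 in FL001 alone and 2.10 in FL002 alone. Without the library block the edgeR adjusted p was 0.267, and gates drawn on thinned cells left 1 UMI of Ccr7 in primed cells and a log2 change of 0.61 ± 1.66. From early to Cd3g cells the change was 1.94 ± 0.34 (adjusted p = 0.000306), and this rested on FL002: it was 2.27 in FL002 alone and 0.46 in FL001 alone. Without the block its adjusted p was 0.0794. The 9 myeloid markers also differed between these gates, at 4371 and 1430 CPM in early cells and 138 and 152 CPM in Cd3g cells. Leaving out the myeloid cells, 20 of 301 and 38 of 848 early cells, gave a change of 1.94 ± 0.34. The rule for those cells uses only Mpo, Elane, Prtn3 and Ctsg. The part of the remaining myeloid RNA in the Ccr7 change was not tested.

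From Cd3g to Il2ra cells Ccr7 changed by 0.83 ± 0.22 (edgeR adjusted p = 0.301), with 1.96 in FL001 alone and 0.57 in FL002 alone. With no filter on low counts the adjusted p was 0.00446. From Il2ra to committed cells it rose by 0.94 ± 0.17 (adjusted p = 0.000332), or 1.92-fold, with 1.17 and 0.70 in each library alone. This call was lost with DESeq2 (adjusted p = 0.16) and without the library block (edgeR adjusted p = 0.259). The committed cells with Il2ra held 53.7 and 65.8 CPM and those without 60.2 and 57.2 CPM, so the level in committed cells did not follow Il2ra in the same direction in both libraries.

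Gates taken as written, in which a cell may count in several, moved Ccr7 most in the Cd3g gate, where it became 31.5 and 32.9 CPM. That gate then held 327 and 873 cells, of which 168 and 198 were also in the committed gate. In the early cells of FL002 Ccr7 went from 5.27 to 11.4 CPM. Ccr9 went from 2.03 to 3.89 CPM in the Cd3g cells and from 1.64 to 3.57 CPM in the Il2ra cells of FL001. Among early cells Ccr7 was 5.58 and 6.95 CPM in those with Tcf7 and 3.03 and 3.83 CPM in those without. These values rest on 7 and 14 UMIs against 3 and 9, and the counting intervals overlap in both libraries. Early cells with Tcf7 were also deeper, at a median of 8936.5 and 5537 UMIs against 5779 and 4555.5. The myeloid cells held Ccr7 at 1.72 and 3.09 CPM. Empty droplets held 19.8 and 16.9 CPM, under the Il2ra and committed cells but above the progenitor, primed and early cells of both libraries. The Cd3g cells lay under the empty droplets in FL001 (6.08 CPM) and above them in FL002 (25.7 CPM). The counting intervals of the droplets were 11.8 to 31.4 CPM in FL001 and 10.2 to 26.4 CPM in FL002. They included the Il2ra cells of FL001 (24.9 CPM) and the primed and Cd3g cells of FL002 (15.8 and 25.7 CPM). The part of free RNA in the Ccr7 values of these gates was not tested.

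The UMIs of Ccr7 were unevenly spread over cells. In the committed cells of FL001, 201 UMIs lay in 88 of 451 cells (19.5%), with 44 cells at 2 or more and up to 12 in 1 cell. In those of FL002, 147 UMIs lay in 100 of 501 cells (19.96%), with 26 cells at 2 or more and up to 7 in 1 cell. In the deeper myeloid cells the share with Ccr7 was 1.86% and 2.44%. Thinned to 1500 UMIs, which left out no cell, the share was 6.87% and 8.18% in the committed cells, 4.54% and 6.90% in the Il2ra cells and 0% and 0.37% in the progenitor cells. In contrast Cxcr4 and S1pr1 never exceeded 4 and 2 UMIs in a cell.

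Cxcr4, the CXCL12 receptor, had low levels with a higher end at the T lineage gates. It was 2.76 and 0.992 CPM in the progenitor cells, 3.77 and 3.15 CPM in the primed cells and 4.90 and 4.12 CPM in the early cells. It was 12.8 and 5.55 CPM in the Cd3g cells, 8.68 and 7.52 CPM in the Il2ra cells and 13.2 and 11.4 CPM in the committed cells. Both libraries of each of the 3 later gates lay above both libraries of each of the 3 earlier ones. No single step passed the test: the log2 change was 1.36 ± 0.51 from progenitor to early cells (edgeR adjusted p = 0.106), 0.86 ± 0.37 from early to Cd3g cells (adjusted p = 0.184) and 0.56 ± 0.26 from Il2ra to committed cells (adjusted p = 0.22). Gates drawn on thinned cells gave the step from early to Cd3g cells an edgeR adjusted p of 0.0138 at a log2 change of 0.89 ± 0.28. Barcodes of empty droplets held Cxcr4 at 15.4 and 21.3 CPM, above its level in every gate of the same library, and the part of free RNA in the Cxcr4 values was not tested.

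S1pr1, the S1P receptor, was low in every gate and passed the test in none. It stood at 8.27 and 5.95 CPM in the progenitor cells, 14.3 and 5.25 CPM in the primed cells and 5.34 and 5.27 CPM in the early cells. It was 1.35 and 4.68 CPM in the Cd3g cells, 3.29 and 2.98 CPM in the Il2ra cells and 2.24 and 4.22 CPM in the committed cells. Both libraries of each of the 3 earlier gates lay above both libraries of each of the 3 later ones, whereas within either set the gates overlapped, other than the progenitor and early cells. Empty droplets held S1pr1 at 4.41 and 8.01 CPM, in FL002 above every gate, and the part of free RNA in this order was not tested. The log2 changes were 0.59 ± 0.46 from progenitor to primed cells, -0.38 ± 0.42 from progenitor to early cells and -0.52 ± 0.49 from early to Cd3g cells (edgeR adjusted p = 0.652, 0.675 and 0.629). The last of these has an interval of 2 SE from -1.51 to 0.46, so a fall could not be told from an equal level at this depth. The myeloid cells, many of which lie in the progenitor and primed gates, held S1pr1 at 12.03 and 4.64 CPM.

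The order of the gates thus differed between receptors. By the mean of the 2 libraries, Ccr7, Cxcr4 and Selplg had the committed cells first and the progenitor cells last, Ccr9 had the primed cells first, and S1pr1 had the primed cells first and the Cd3g cells last. Both libraries of the progenitor cells lay below both libraries of the early cells for Ccr7 (1.84 and 3.64 against 4.45 and 5.27 CPM) and Cxcr4. Neither difference passed the test (edgeR adjusted p = 0.443 and 0.106). For Ccr9 and Selplg the libraries of these 2 gates overlapped, although Selplg was lower in the progenitor cells within each library.

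Most cells of every gate had at most 1 of the receptors detected. At full depth, 23.9% of the committed cells of FL001 and 36.5% of those of FL002 had none of the 5, and 52.3% and 50.1% had exactly 1. In the progenitor cells 48.0% and 64.4% had none. Thinned to 1500 UMIs, 66.7% and 70.3% of the committed cells and 89.1% and 86.1% of the progenitor cells had none. At full depth 4 receptors were found in 1 primed cell and 2 committed cells, all of FL001, and no cell had 5.

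**Figure D4:**
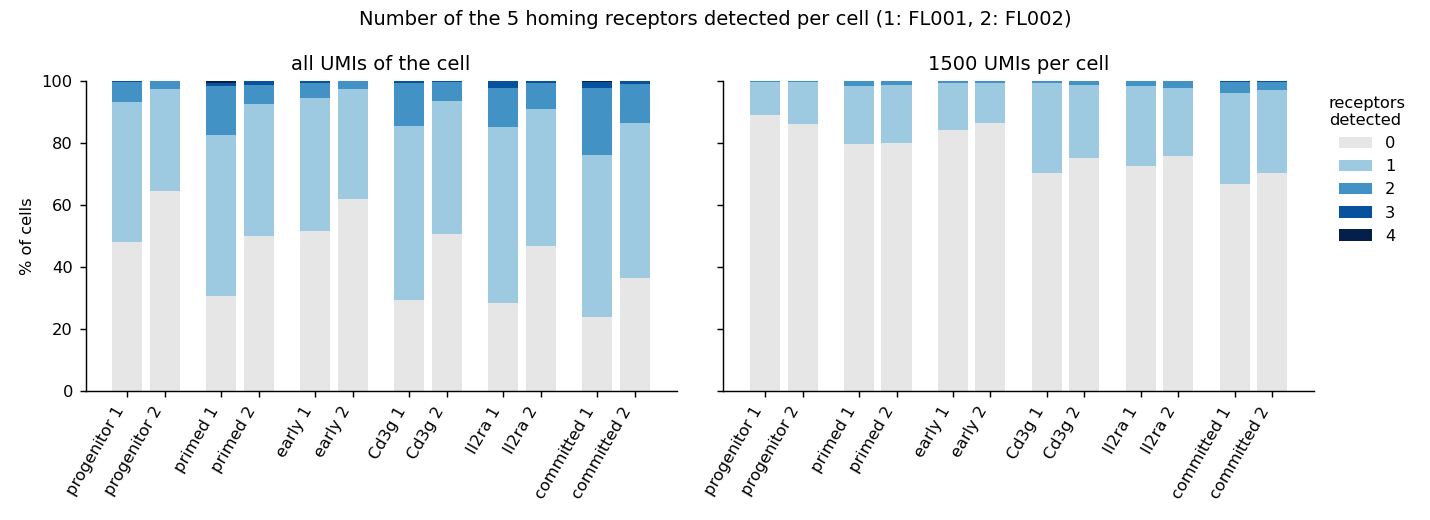
Share of cells (vertical axis in percent) with 0 to 4 of the 5 receptors detected, in the 6 gates of FL001 (1) and FL002 (2), at all UMIs of each cell (left) and after thinning to 1500 UMIs (right). With all UMIs 23.9% and 36.5% of the committed cells had none, and with thinned cells 66.7% and 70.3%.

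Pairs of receptors were compared with the product of their shares in the same gate and library, the number of cells that would hold both if the receptors were detected independently. Summed over the gates at full depth, Ccr7 and Selplg were found together in 122 cells of FL001 and 177 of FL002, beside products of 111 and 170 cells. Cxcr4 and Selplg were together in 81 and 51 cells beside 72.8 and 49.3, and Ccr7 and Cxcr4 in 14 and 12 cells beside 13.9 and 14.3. Ccr9 and Selplg were together in 29 cells of FL001 beside 26.6 and in 29 of FL002 beside 19.2. Cells of higher depth hold more of every gene, and at 1500 UMIs the pair of Ccr7 and Selplg was found in 10 and 47 cells beside 13.4 and 33.1. At that depth Ccr9 and Selplg were together in 12 cells of FL001 beside 4.0 and in 2 of FL002 beside 2.98.

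Ccr7 and Ccr9 are the thymic chemokine receptors that were both higher in primed cells. At full depth the pair was found in 4 of 133 primed cells of FL001 beside a product of 0.602. In FL002 it was found in 1 of 146 primed cells beside 1.16. In the committed cells it was found at full depth in 3 of 451 cells of FL001 beside 4.29. In those of FL002 it was found in 0 of 501 beside 1.2, which allows a share of up to 0.599% (3 cells of the total). In thinned committed cells the pair was found in 2 cells of FL001 beside 0.756 and in 0 of FL002 beside 0.164. At full depth the libraries thus differed in direction in the primed cells. Thinned primed cells held the pair in 0 of 133 cells of FL001 beside 0.0451 and in 0 of 146 of FL002 beside 0.164. Such products are too low to judge a count of 0. In FL001 all 8 primed cells with Ccr7 and all 10 with Ccr9 were among the 78 that were not myeloid cells. The myeloid cells of the gate thus lower the product, and their part in the excess of FL001 was not tested. Ccr9 and Cxcr4 were found together at full depth in only 1 cell of FL001 and 1 of FL002, beside 3.10 and 1.31.

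The primed cells with Ccr9, 10 in FL001 and 17 in FL002, were compared with the other primed cells of the same library as a description, with no test. Il7r, the interleukin-7 receptor of lymphoid progenitors, stood at 103 and 102 CPM in cells with Ccr9 and at 22.6 and 29.6 CPM in cells without. The other leading genes by the smaller difference of the 2 libraries were Sdpr at 148 and 195 CPM against 7.27 and 17.8 CPM, Tpm2 at 148 and 112 CPM against 29.1 and 30.8 CPM, Sla2 and Pdlim2. Of the genes that define the gate, Ighm was 844 and 651 CPM against 369 and 413 CPM and Ebf1 was 45.6 and 112 CPM against 25.9 and 41.5 CPM. Cd79b went the other way, with 57.0 and 74.4 CPM against 101 and 118 CPM. Igll1, a surrogate light chain gene of committed B cell precursors, had 0 UMIs in the cells with Ccr9 of both libraries and 1 and 4 UMIs in the others. The 10 and 17 cells with Ccr9 were too few to tell this 0 from the level in the others, 0.808 and 4.74 CPM.

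Myeloid genes were low in the primed cells with Ccr9. The granule protease genes Elane and Ctsg had 0 UMIs there in both libraries, against 90.5 and 108 CPM and 119 and 105 CPM in the other primed cells. Mpo was 205 and 298 CPM against 1149 and 961 CPM, and Irf8, a factor of monocyte and dendritic cell development, was 57.0 and 9.30 CPM against 278 and 275 CPM. Csf1r, the receptor for macrophage colony-stimulating factor, had 0 UMIs in the cells with Ccr9, against 43.6 and 42.6 CPM. Of the cells with Ccr9 0 and 1 were myeloid cells by the rule above, against 55 and 30 of those without. Cells with Ccr9 had a median of 7516.5 and 6819 UMIs and those without 9440 and 6122.

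The Il2ra cells with at least 2 UMIs of Ccr7, 23 in FL001 and 52 in FL002, were compared in the same way with the Il2ra cells that had 0. Ctla4, an inhibitory receptor of T cells, was 114 and 279 CPM against 45.2 and 82.9 CPM, and Txk, a kinase of T cells, was 137 and 166 CPM against 55.9 and 77.1 CPM. Cd3g was 3602 and 3254 CPM against 2253 and 2183 CPM, and Trdc, the constant region of the T cell receptor delta chain, was 125 and 313 CPM against 85.3 and 121 CPM. Lower were Gzmb, which encodes the cytotoxic protease granzyme B, at 17.1 and 0 CPM against 120 and 67.3 CPM, and the cell cycle gene Mki67 at 39.8 and 52.1 CPM against 81.9 and 86.6 CPM. Tcf7 was about level, at 256 and 393 CPM against 289 and 388 CPM. The cells with Ccr7 were shallower, with a median of 7159 and 3988 UMIs against 8746 and 4644. Both comparisons of cells with and without a receptor were chosen after values had been seen.

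**Figure D5:**
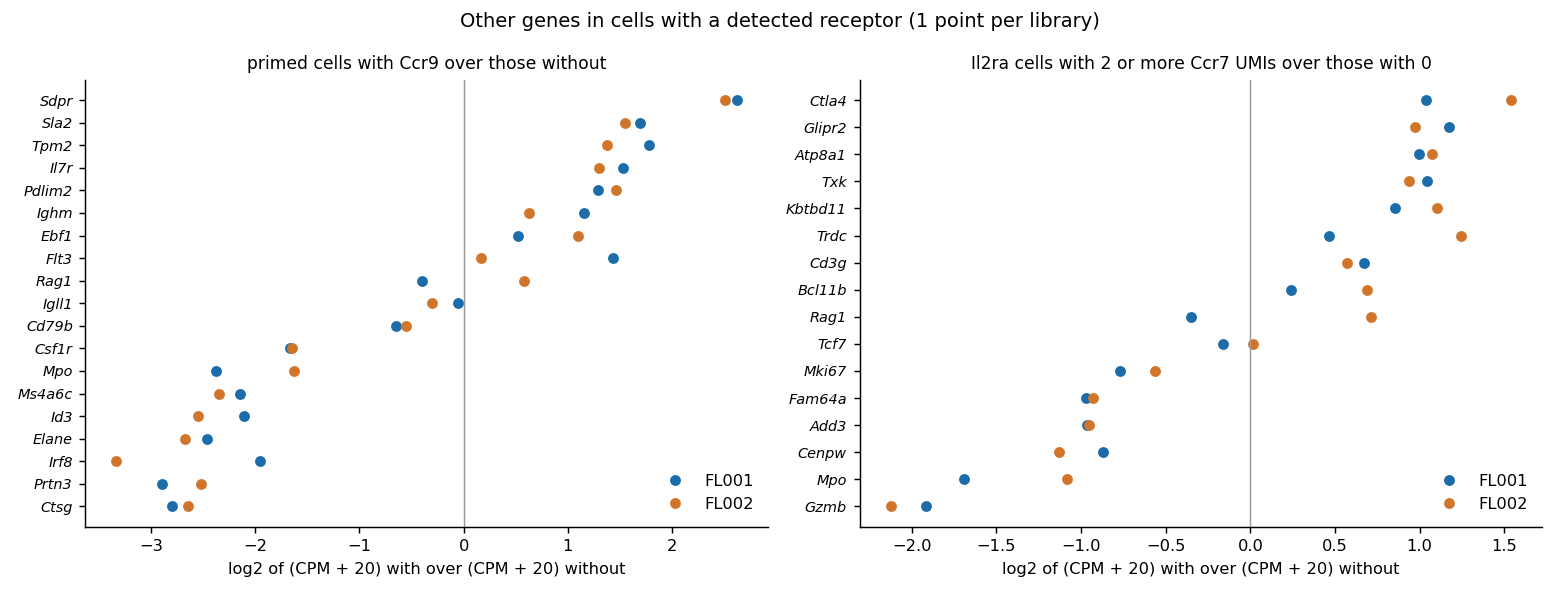
Difference in the level of other genes (horizontal axis, log2 of the ratio of CPM + 20) between primed cells with and without Ccr9 (left) and between Il2ra cells with 2 or more UMIs and with 0 UMIs of Ccr7 (right), with 1 point per library. Sdpr, Il7r and Ighm lie to the right in both libraries on the left panel, and the myeloid genes Mpo, Elane and Ctsg to the left.

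Genes that act with these receptors were taken from 6 lists. Their counts stand beside these shares of all genes tested that rose and fell. The shares were 2.03% and 1.34% in primed over progenitor cells and 4.94% and 4.13% in early over progenitor cells. They were 3.74% and 3.63% in Cd3g over early cells and 0.0871% and 0.0677% in Il2ra over Cd3g cells. In committed over Il2ra cells they were 5.21% and 4%. Of 11 genes for the glycosylation and sulfation of selectin ligands, which make PSGL-1 able to bind P-selectin, 10 were tested. Between committed and Il2ra cells 2 of them rose and 2 fell, with a median log2 change of -0.12 beside 0.01 over all genes. B4galt1, a galactosyltransferase, rose by 1.32 ± 0.17 (edgeR adjusted p = 3.64e-06), from 16.4 and 11.2 to 40.6 and 27.9 CPM. C1galt1, which makes the core of O-glycans, rose by 0.80 ± 0.20, and Tpst2, which sulfates tyrosines, fell by 0.44 ± 0.11. Fut7, the fucosyltransferase of selectin ligands, fell from 2.82 and 4.40 CPM to 0 and 1.69 CPM. C1galt1 also rose from early to Cd3g cells (0.94 ± 0.24), the only one of the 10 that did. Between early and progenitor cells none rose and 2 fell, B4galt1 and Tpst1, with a median of -0.44. Tpst2 alone fell from progenitor to primed cells, and none of the 10 passed the test between Il2ra and Cd3g cells.

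Of 12 genes of S1P signalling, export and breakdown, 10 were tested. Klf2, a transcription factor known to drive S1pr1, fell by 1.74 ± 0.15 on the log2 scale from progenitor to early cells and by a further 2.67 ± 0.23 from early to Cd3g cells (edgeR adjusted p = 7.76e-09 and 7.21e-09). Its level was 183 and 556 CPM in progenitor cells, 32.5 and 193 CPM in early cells and 10.8 and 24.6 CPM in Cd3g cells, with FL002 the higher in each. Spns2, an S1P exporter, fell in 4 of the 5 comparisons, down to 1.68 and 3.8 CPM in committed cells. Mfsd2b, the S1P exporter of red cells and platelets, had 6.23 and 4.58 CPM in early cells and 0 UMIs in Cd3g cells, which allows up to 2.03 and 0.877 CPM. Cd69, whose protein binds S1PR1 and draws it off the surface, rose in primed over progenitor cells (1.39 ± 0.25) and in committed over Il2ra cells (0.82 ± 0.19). In the list as a whole 1 gene rose and 2 fell in primed over progenitor cells, 0 and 2 in early over progenitor cells, 0 and 3 in Cd3g over early cells, none in Il2ra over Cd3g cells, and 1 and 1 in committed over Il2ra cells. The medians of the list were -0.03, 0.08, -0.27, 0.25 and -0.19 in this order. S1pr1 itself passed in none of these comparisons, beside the falls of Klf2 in 2 of them.

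Of 18 other chemokine receptors only 8 passed the filter on low counts. Ccr2, the receptor for CCL2 on monocytes, and Cx3cr1, the fractalkine receptor, also rose in primed over progenitor cells. Ccr2 went from 15.6 and 12.2 to 56.6 and 33.6 CPM and Cx3cr1 from 0 and 2.64 to 15.1 and 13.7 CPM. Myeloid cells were 41.4% and 21.2% of the primed and 27.6% and 16.5% of the progenitor cells, and the myeloid gene Csf1r stood at 40.8 and 37.8 CPM against 7.81 and 7.93 CPM, whose part in these rises was not tested. Ccr2 fell by 1.83 ± 0.31 from Cd3g to Il2ra cells (edgeR adjusted p = 0.0052), in a step where no member of the 5 passed. Cxcr6, a receptor of innate-like and resident lymphocytes, rose from progenitor cells (0.459 and 0 CPM) to early cells (15.1 and 7.10 CPM) and fell from Il2ra to committed cells (4.46 and 1.70 to 0.839 and 0.422 CPM). Cx3cr1 rose in committed over Il2ra cells, and none of the 8 passed from early to Cd3g cells. The medians were 1.05, 0.45, -0.11, -0.27 and 0.02 in the 5 comparisons, beside medians of all genes between -0.01 and 0.02.

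Adhesion genes were a list of 8, all of which were tested. Cd44, the hyaluronan receptor that marks the earliest thymocytes, fell from progenitor to early, early to Cd3g and Il2ra to committed cells, from 50.1 and 53.6 CPM in progenitor cells to 1.40 and 3.38 CPM in committed cells. The integrin genes Itgb7, Itgal and Itga4 rose from progenitor to early cells, where Itga6 fell, and Itgb7 fell from early to Cd3g cells. None of the 8 passed the test in primed over progenitor or in Il2ra over Cd3g cells. The median of the list was -0.14, 0.30, -0.19, -0.02 and -0.17 in the 5 comparisons.

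Of 20 gene symbols listed for chemokine receptor signalling 19 were in the files, and all 19 were tested. In primed over progenitor cells 4 rose: Gnai2 and Gng2, subunits of the G protein these receptors use, Coro1a and Rgs10. From early to Cd3g cells 5 of the 19 fell and none rose, beside 3.63% and 3.74% of all genes tested. Those that fell were Rgs1 and Rgs2, which shut off G protein signalling (falls of 1.30 ± 0.21 and 1.26 ± 0.17), Rgs10, Rgs19 and Coro1a. Rgs1 and Rgs2 also fell from progenitor to early cells, Elmo1 alone fell from Il2ra to committed cells, and none passed from Cd3g to Il2ra cells. The medians of the list lay between -0.19 and 0.16. Of 6 genes for ligands 1 was tested, Ccl25, which was between 9.23 and 17.7 CPM in all gates and passed in no comparison.

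The genes whose pattern over the 6 gates was most like each receptor were taken from 5500 genes with a mean of at least 20 CPM, ranked by the lower of the 2 libraries' Pearson correlations of log2(CPM + 10). The 6 points of a correlation share a library and a T lineage order, so the values are a description. For Ccr7 these were Gbp7 (lower correlation 0.95), Arl4c (0.94), Arpp21 (0.94), Cep164 (0.94) and Sh3bp5 (0.93). For Selplg they were Arpp21 (0.99), Txk (0.99), Tspan2 (0.98), Lrmp (0.98) and Fth1 (0.97), so Arpp21 was on both lists. For Ccr9 they were Pdia4 (0.93), Ighm (0.91), Arhgdia (0.91), Ska1 (0.91) and Ifi203 (0.90), of which Ighm defines the primed gate. Cxcr4 was most like Oaf (0.98), Psmb9 (0.97), Acd (0.97), Psmb8 (0.96) and Arid5a (0.96), of which Psmb8 and Psmb9 are immunoproteasome subunits. S1pr1 was like Scarb1 (0.90), Rnft1 (0.90), Ccdc22 (0.90) and Ythdc1 (0.89).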

How the data were processed

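The deposited matrices give, for every gene and barcode, UMI counts with no normalization, which the authors made with CellRanger from 10X Chromium libraries. The submitters' processing notes name the build mm9, the version of CellRanger is not given in the sources used here, and the files hold no coordinates. Of 28692 identifiers 28416 were found in GENCODE M21. Each library listed 737280 barcodes, with 16320118 UMIs in FL001 and 22651783 in FL002. Filters removed 3 and 0 barcodes for few genes and 33 and 13 for mitochondrial UMIs.

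Levels are CPM, UMIs per 1000000 UMIs summed over a gate, with exact Poisson intervals, and shares have exact binomial (Clopper-Pearson) intervals, both at 95% and for counting error only. The limit that a count of 0 allows is 3 counts, of UMIs for a level and of cells for a share, over the gate in that library. For equal depth each cell was thinned to 1500 UMIs. Scrublet, run in scanpy 1.11.5, marked 0.336% and 0.0976% of cells, too few to have worked, so doublets were kept and an alternative left out the 5% highest scores.

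UMIs summed per library and gate (12 sums) were tested with edgeR 4.0.16 (TMM, filterByExpr, quasi-likelihood, library as a block, Benjamini-Hochberg, adjusted p under 0.05). The block pairs the gates of 1 library because they come from the same capture. On simulated counts for committed against Il2ra cells over 10337 genes, 80 of 100 genes changed 2-fold and 90 of 100 changed 4-fold were recovered, and 8 of 9949 unchanged genes were called. Every simulated gene had the common dispersion of 0.00291, so the result does not cover genes whose gate differences vary more between libraries. Alternatives were DESeq2 1.42.0 and its size factors, no filter, no block, gates on thinned cells, stricter cell filters, no myeloid cells and each library alone.

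Named genes were the receptors, the gate genes, the 5 most alike for each receptor, list genes past the threshold, and, for cells with a detected receptor, the 5 leading genes each way (CPM + 20) and markers. Members and lists were chosen with earlier results of these data known. A few genes that these rules name are not reported here.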

Additional observations from a re-analysis of the deposited data

Results flagged for a closer look

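Barcodes with 1 to 100 UMIs, which were used in no comparison, carried the receptors above the level that a count of 0 allows. They numbered 308744 in FL001 and 293224 in FL002, with a mean of 2.94 and 3.83 UMIs each. Ccr7 stood at 19.8 CPM in those of FL001 and 16.9 CPM in those of FL002, Cxcr4 at 15.4 and 21.3 CPM, Selplg at 123 and 94.3 CPM and S1pr1 at 4.41 and 8.01 CPM. Ccr9 stood at 8.82 CPM in FL001 (8 UMIs), and in FL002 its 2 UMIs did not pass that level. The Cxcr4 level there was above that of every gate in both libraries, and the S1pr1 level above that of every gate in FL002. The Selplg level was above that of the progenitor, primed and early cells in both libraries. The Ccr9 level of FL001 was under that of the primed cells (12.8 CPM) and above that of every other gate. Its counting interval there, 3.81 to 17.4 CPM, included the values of the primed and the committed cells (12.8 and 6.99 CPM). The Ccr7 level was under that of the Il2ra and committed cells in both libraries. It was above that of the Cd3g cells in FL001 and under it in FL002. Its counting intervals included the Il2ra cells of FL001 and the primed and Cd3g cells of FL002.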

How the results depend on the processing

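Of the 7 calls, those lost under a setting were as follows. Without the library as replicate block the log2 changes that lost the call were 2.11 (Ccr7, primed), 1.88 (Ccr7, Cd3g), 0.48 (Selplg, Cd3g), 0.88 (Ccr7, committed), 1.84 (Ccr9, committed) and 0.36 (Selplg, committed), and the Ccr9 rise in primed cells alone was kept. With DESeq2 those in committed cells were lost at 0.97 (Ccr7), 1.92 (Ccr9) and 0.35 (Selplg). With gates on thinned cells, Ccr7 and Ccr9 in primed cells (0.61 and 0.95, with 1 UMI each) and Ccr9 and Selplg in committed cells (1.79 and 0.28) were lost and Cxcr4 in Cd3g cells was gained (0.89). Ccr7 in Il2ra cells was gained with no filter (0.82). No call was lost with DESeq2's size factors, the stricter filters on UMIs and mitochondrial UMIs, without the 5% highest doublet scores or without myeloid cells.

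Changes of sign concerned uncalled values. With gates on thinned cells these were, in primed cells, Cxcr4 at -4.73 and S1pr1 at -7.89 (0 UMIs, so the size depends on the prior count) and Selplg at -0.41, and Ccr9 at -0.36 in early, -1.21 in Cd3g and 0.61 in Il2ra cells. Ccr9 was -0.165 in early cells at 5% mitochondrial UMIs, and in Cd3g cells -0.0827 without high doublet scores and -0.00802 without myeloid cells. Cxcr4 in Il2ra cells lay near 0 throughout: -0.0133 with DESeq2's size factors, -0.00335 with no filter, -0.0693 with DESeq2, -0.0214 with no replicate block, -0.185 with gates on thinned cells, -0.0525 at 5% mitochondrial UMIs and -0.0503 without high doublet scores. S1pr1 in committed cells was 0.0116 with DESeq2, 0.066 at 5% mitochondrial UMIs and 0.0229 without myeloid cells.

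In 1 library alone, the log2 change ranged from -0.0818 to 0.79 for S1pr1 in primed cells, from -0.78 to 0.81 for Ccr9 in early cells, from 0.46 to 2.27 for Ccr7, -0.30 to 1.82 for Ccr9 and -1.72 to -0.16 for S1pr1 in Cd3g cells, from 0.57 to 1.96 for Ccr7, -0.58 to 0.41 for Cxcr4 and -0.66 to 1.01 for S1pr1 in Il2ra cells, and from -0.52 to 0.54 for S1pr1 in committed cells.

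Genes past the threshold in the 5 comparisons were 348, 938, 762, 16 and 952. They were 162, 360, 336, 3 and 311 with DESeq2 and 112, 304, 297, 2 and 382 with no replicate block. Gates on thinned cells gave 96 in primed and 1929 in Cd3g cells, leaving out myeloid cells 200 in primed cells, and for Il2ra cells no filter gave 44, at least 3000 UMIs 9 and at most 5% mitochondrial UMIs 10. Gates as written moved 7 of 60 levels out of their counting intervals, while 53 stayed within. The cause of these differences was not tested, other than the 5 and 6 primed cells left by thinning. The 55 and 74 UMIs of Ccr9 limit what can be said of single gates.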

Other observations

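The 6 cells of FL001 and 13 cells of FL002 that met no gate held 2 and 0 UMIs of Ccr7, 0 and 0 of Ccr9 and Cxcr4, 2 and 6 of Selplg and 1 and 1 of S1pr1. Of the chemokine receptors that did not pass the filter on low counts, Ccr6 had 17 UMIs over the 12 sums, of which early cells held 2.67 and 1.14 CPM, and Cxcr5 had 31 UMIs with 0 in the progenitor and primed cells of both libraries. Cxcl12, the ligand of Cxcr4, had 32 UMIs, with 4.48 and 1.69 CPM in committed cells and 0 UMIs in progenitor and primed cells.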
